A study of Homo sapiens with 4 samples.

Results

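Every chromatin domain listed on human chromosomes 16, 17, 19 and 22 was described, and these chromosomes were set against the other autosomes. The members are all rows of the 4 deposited domain lists that lie on these chromosomes, taken with no selection by value. The lists of empty vector A and B held 776 and 780 of them, and those of BAF47 A and B held 772 and 787. Together these are 3115 of the 26136 domains in the whole series. The background was the remaining 16 autosomes, with 21245 domains in the 4 lists.

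A topologically associating domain is a stretch of a chromosome whose sequences contact each other more than they contact the neighbouring stretches. The edges of such domains often hold binding sites of CTCF and cohesin, which halt the extrusion of chromatin loops, and edges also gather at active promoters and housekeeping genes. Chromosomes 16, 17, 19 and 22 are known for many genes relative to their length, for high GC content and for early replication, and in most nuclei they lie towards the interior. BAF47, encoded by SMARCB1, belongs to the core of the BAF (SWI/SNF) remodelling complex, which moves nucleosomes at enhancers and promoters, and it is lost in most epithelioid sarcomas.

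Hi-C, which reads pairs of sequences that lie close together in the nucleus, was done in VA-ES-BJ, an established line from an epithelioid sarcoma, to ask whether domain structure differs once BAF47 is expressed again. An empty lentivirus was given to 2 samples and a lentivirus that expresses BAF47 constitutively to the other 2, and each pair is lettered A and B. All cells thus carried a lentivirus and went through selection in 10 µg/ml blasticidin. The labels give 48 h for either virus exposure or selection and 5 days for either selection or growth. They do not say that the letters stand for separate infections, so the spread that p-values measure here is that among these samples alone and may be technical. The files hold no reads, so the depth of each library and the level of BAF47 are unknown, and this line stands for 1 tumour only.

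Each list gives a start and an end per domain on a grid of 50 kb bins. Listed positions leave out some bins and are not genome coordinates, so no gene was placed on them and no sequence was read at them. Lengths and densities below count listed bins only. The listed span, from the first start to the last end, was 79.0 Mb on chromosome 16, 78.25 Mb on chromosome 17, 55.8 Mb on chromosome 19 and 35.05 Mb on chromosome 22. On these chromosomes 78.4% to 87.0% of the domain starts of each list matched a start of empty vector A as listed, and an offset of 0 bins gave the most matches in every case. On chromosome 9 in both BAF47 lists and on chromosome 20 in BAF47 B an offset of 1 bin gave more matches, and these chromosomes are not in the background.

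The label of gene-dense chromosomes was checked first. Chromosome 19 has 1451 protein-coding genes, or 26.0 per listed Mb. Chromosome 17 has 14.9, chromosome 22 has 12.9 and chromosome 16 has 10.8 protein-coding genes per listed Mb. These are the 4 highest densities of the 20 autosomes compared, and the next is chromosome 11 with 9.91. The genes were counted per chromosome in the RefSeq annotation of GRCh38.p14, which is another build than that of the lists. The 16 background chromosomes together have 6.14 genes per listed Mb, and of these 4 chromosomes 16 lies closest to that value and 19 farthest above it.

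Domains were packed most densely on chromosomes 17, 22 and 19, while chromosome 16 resembled the rest of the genome. Chromosome 17 held 279 and 276 domains with empty vector and 280 and 284 with BAF47, which is 3.57, 3.53, 3.58 and 3.63 domains per Mb. Chromosome 22 held 120, 122, 125 and 121 domains in the same order of samples, or 3.42 to 3.57 per Mb. For chromosome 19 the counts were 187, 188, 178 and 191 domains, or 3.19 to 3.42 per Mb. In every sample these chromosomes lay above each of the other 17 autosomes, of which chromosome 15 came next with 2.73 domains per Mb (mean of 4 samples). The ranges of chromosomes 22 and 17 overlapped, so their order is not resolved by these samples, and the lowest value of chromosome 22 (3.424) lay just above the highest of chromosome 19 (3.423). Chromosome 16 held 190, 194, 189 and 191 domains, or 2.39 to 2.46 per Mb, and ranked 10th of 20.

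**Figure D1:**
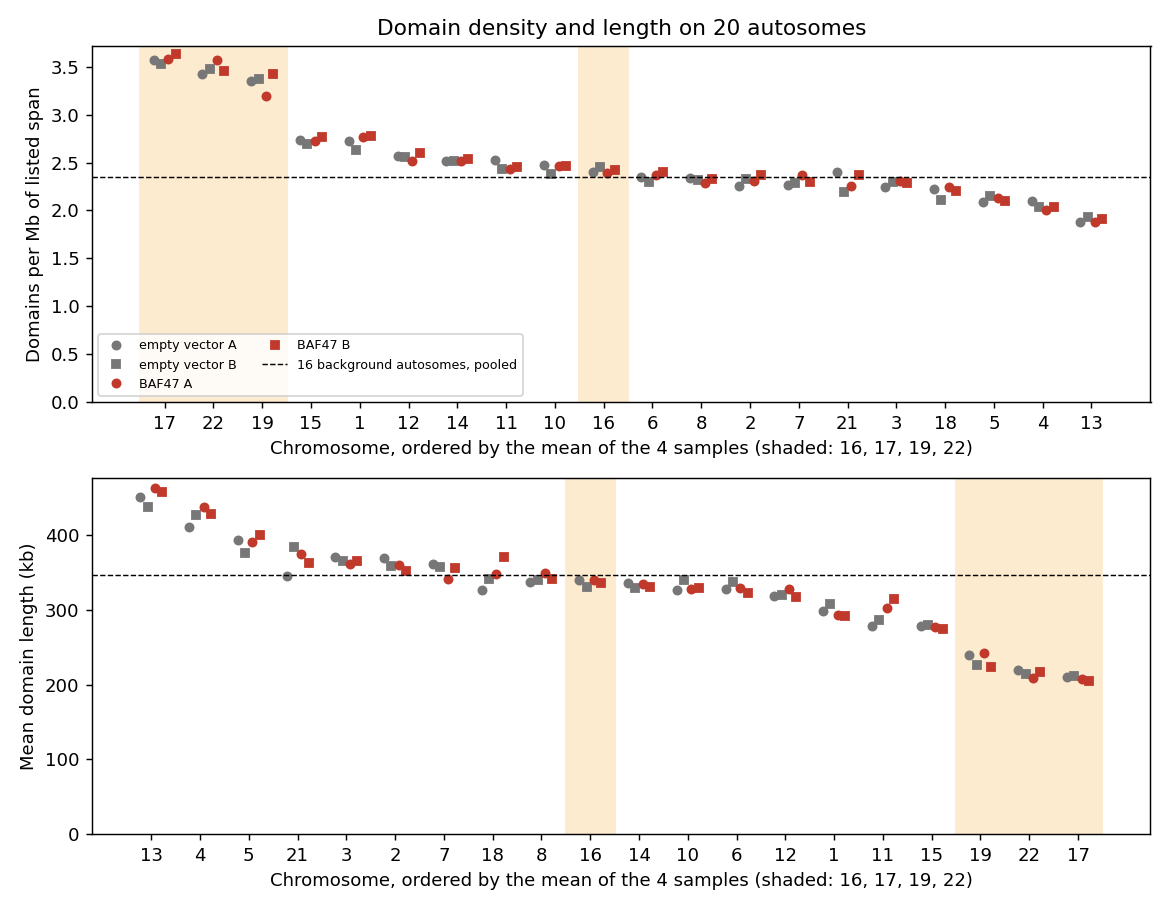
Domains per Mb of listed span (upper panel) and mean domain length in kb (lower panel) on 20 autosomes, with 1 point per sample and chromosomes ordered by the mean of the 4 samples. Chromosomes 17, 22 and 19 (shaded) stand at 3.19 to 3.63 domains per Mb, above all others, and chromosome 16 (shaded) lies beside the dashed line of the pooled background.

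Pooled over the 4 chromosomes, density was 3.13, 3.14, 3.11 and 3.17 domains per Mb in empty vector A, empty vector B, BAF47 A and BAF47 B. The background had 2.35, 2.33, 2.35 and 2.37 domains per Mb. The difference was 0.79 ± 0.026 domains per Mb (SD, n = 4 samples), a ratio of 1.34, and it was positive in 4 of 4 samples (exact two-sided sign-flip permutation p = 0.13, the smallest that 4 samples allow; 0.147 after Benjamini-Hochberg adjustment over 60 such tests). Without chromosome 16 it was 1.13 domains per Mb, and for chromosome 16 alone it was 0.068. Across the 20 autosomes, domain density and gene density rose together, with Spearman's rho 0.87 and Pearson's r 0.81. The 16 background chromosomes alone gave rho 0.82 and r 0.81, so the relation did not rest on the gene-dense chromosomes. These are descriptions across chromosomes that share the same 4 libraries and the same listed span as divisor.

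Domains on chromosomes 17, 19 and 22 were the shortest of the 20 autosomes on average. The mean length on chromosome 17 was 210.0, 211.6, 207.5 and 204.8 kb in empty vector A, empty vector B, BAF47 A and BAF47 B. Chromosome 22 had means of 219.2, 214.3, 208.8 and 216.9 kb, and chromosome 19 had 239.8, 226.9, 243.0 and 223.3 kb. No background chromosome reached as low, since the lowest background mean was 277.7 kb on chromosome 15 (mean of 4 samples). On chromosome 16 the mean length was 340.5, 330.7, 340.7 and 335.9 kb, against 344.7 to 347.3 kb in the background. The pooled means of the 4 chromosomes were 250.6, 245.3, 248.5 and 242.9 kb, and they differed from the background by -99.6 ± 4.14 kb (SD, n = 4; exact sign-flip permutation p = 0.13). The median domain was 150 kb in each pooled list, against 200 kb in the background.

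The 4 chromosomes reached these means by different mixes of short and long domains. On chromosome 19, 27.5% of domains were 50 kb long, the shortest the grid allows, and on chromosome 17 it was 24.2% (means of 4 samples). These were the highest shares of the 20 autosomes, and the background had 17.3%. Chromosomes 16 and 22 had 18.4% and 17.2%, close to the background. Chromosome 22 therefore had short domains without an excess of the shortest. Among domains under 1 Mb the mean length was 155.3 kb on chromosome 19, 174.5 kb on chromosome 17, 175.3 kb on chromosome 22 and 189.8 kb on chromosome 16. All 4 values lay below the 230.9 kb of the background, and each did so in 4 of 4 samples (exact sign-flip permutation p = 0.13 for each). Chromosome 16 was thus short in this class, while its overall mean length lay near that of the background.

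Long domains separated chromosome 16 from the other 3. Domains of 1 Mb or more numbered 15, 15, 16 and 16 on chromosome 16 and held 47.5% to 48.9% of its covered length, the largest mean share of the 20 autosomes. On chromosome 17 they numbered 6, 6, 5 and 5 and held 17.02% to 18.9%, the smallest. Chromosome 22 had 3 such domains in every sample, with 20.2% to 20.7% of its covered length, the next smallest share. Chromosome 19 had 8, 7, 7 and 6, with 33.2% to 39.1%, near the 37.2% to 38.4% of the background. The difference from the background was 10.6 percentage points on chromosome 16, -19.8 on chromosome 17, -17.3 on chromosome 22 and -1.81 on chromosome 19 (exact sign-flip permutation p = 0.13, 0.13, 0.13 and 0.375).

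The longest domain listed identically in all 4 samples measured 7.5 Mb on chromosome 16, from 47.55 to 55.05 Mb. On chromosome 19 it measured 4.8 Mb (19.6 to 24.4 Mb) and adjoined another of 2.35 Mb (24.45 to 26.8 Mb), and on chromosome 17 it measured 3.65 Mb (46.45 to 50.1 Mb). The longest such domain on chromosome 22 measured 1.15 Mb (10.9 to 12.05 Mb). A domain of 2.95 Mb there, from 31.05 Mb, began 1 bin lower in BAF47 A and so was not identical in all lists.

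Over complete windows of 10 Mb, domain starts were unevenly spread along chromosome 19 and more evenly along chromosome 22. These windows leave out the last part of each chromosome. On chromosome 22 that part, beyond 30 Mb, holds its longest domain (2.95 to 3 Mb). On chromosome 19 the part beyond 50 Mb holds its second longest (2.65 to 2.9 Mb). In windows of 10 Mb, chromosome 19 had 45 starts between 0 and 10 Mb (mean of 4 samples) and 7 in each sample between 20 and 30 Mb, a stretch largely filled by its longest domains. That window was 92.5% covered by domains in every sample. The other 3 complete windows of chromosome 19 had 39.75 to 44.75 starts. Chromosome 17 ranged from 23.5 starts (60 to 70 Mb) to 45 starts (30 to 40 Mb), chromosome 22 from 30.5 (10 to 20 Mb) to 40.75 (0 to 10 Mb), and chromosome 16 from 16.5 (60 to 70 Mb) to 29.25 (20 to 30 Mb). The median of 218 background windows was 22.9 starts and their upper quartile was 28.25. Above that quartile lay 5 of 7 windows of chromosome 17, 4 of 5 of chromosome 19, 3 of 3 of chromosome 22 and 2 of 7 of chromosome 16.

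Less of the listed span was inside domains on chromosomes 17, 19 and 22 than in the background. Domains covered 74.9%, 74.6%, 74.2% and 74.3% of chromosome 17 in empty vector A, empty vector B, BAF47 A and BAF47 B. They covered 75.04%, 74.6%, 74.5% and 74.9% of chromosome 22, and 80.4%, 76.4%, 77.5% and 76.4% of chromosome 19, where empty vector A stood above the other samples. Coverage of chromosome 16 was 81.9%, 81.2%, 81.5% and 81.2%, within the 80.8% to 82.1% of the background. Pooled, the 4 chromosomes were 78.4%, 77.1%, 77.3% and 77.1% covered. The difference from the background was -3.91 ± 1.06 percentage points (SD, n = 4) and lay between -5.02 and -2.56 in the 4 samples (exact sign-flip permutation p = 0.13). Against chromosomes 18 and 21 alone, which hold fewer genes per listed Mb than any of these 4, the difference was -1.25 points, positive in both empty vector samples and negative in both BAF47 samples (exact sign-flip permutation p = 0.63).

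The uncovered part consisted mostly of bins between neighbouring domains. No listed neighbours touched, and most were exactly 1 bin apart. Such gaps of 50 kb took up 16.0% of the span of chromosome 17, 15.4% of chromosome 19, 14.98% of chromosome 22 and 10.6% of chromosome 16, against 10.2% in the background (means of 4 samples). Pooled, they took up 3.85 points more of the span than in the background, higher in 4 of 4 samples (exact sign-flip permutation p = 0.13). This is nearly the whole of the difference in coverage (-3.91 points). Of all gaps, 89.2% to 90.2% here and 86.0% to 87.3% in the background were 1 bin wide. More domains per Mb thus bring more of the span into such gaps by construction. These differences largely restate that in density and are not separate results. Gaps of 100 kb or more took up 8.52% of the pooled span and 8.46% of the background span, a difference of 0.061 points that was positive in 2 of 4 samples (exact sign-flip permutation p = 1).

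**Figure D2:**
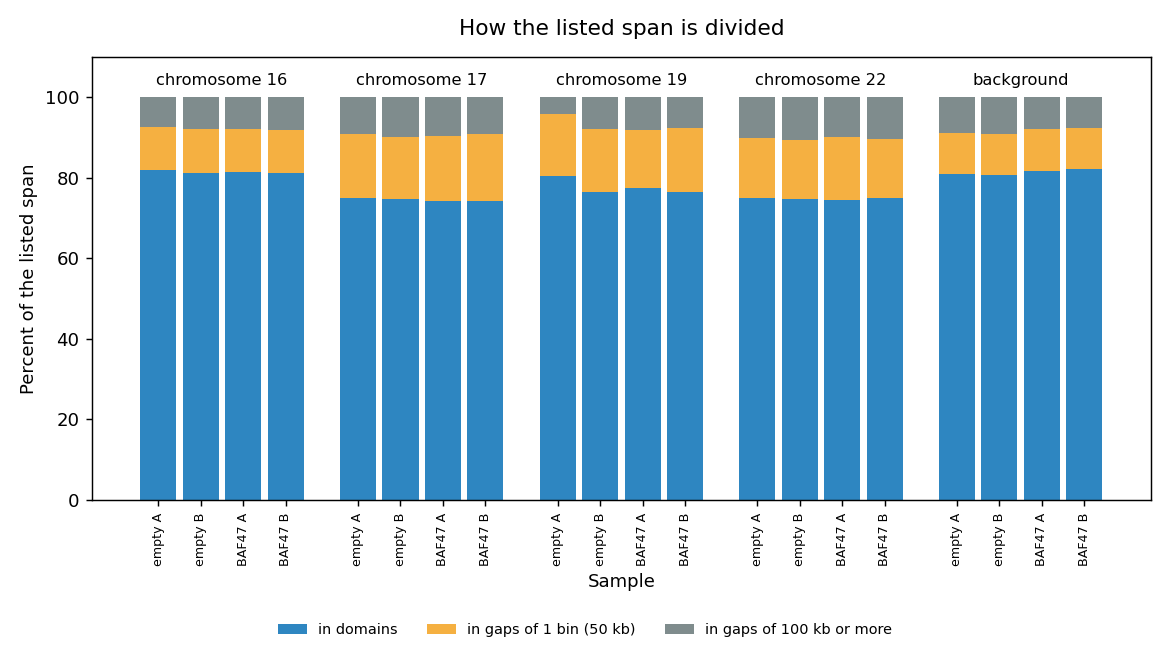
Share of the listed span inside domains, in gaps of 1 bin and in gaps of 100 kb or more, as stacked bars for each sample of chromosomes 16, 17, 19 and 22 and of the pooled background. The band of 1-bin gaps is wider on chromosomes 17, 19 and 22 (14.98% to 16.0% on average) than on chromosome 16 (10.6%) or in the background (10.2%).

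Wide gaps were fewer relative to the number of neighbouring pairs. Of all gaps, 7.32% were 100 kb or more on chromosome 19, the lowest share of the 20 autosomes, 10.3% on chromosome 17, 11.4% on chromosome 16 and 13.2% on chromosome 22 (means of 4 samples). The pooled share was 9.84%, 10.8%, 10.7% and 9.96% in the 4 samples, a difference of -2.99 ± 0.75 points from the background (SD, n = 4; exact sign-flip permutation p = 0.13). That direction depended on the measure, because it turned to +0.15 points for gaps of 200 kb or more. It turned to +2.54 points when 50 kb domains were left out, but each such domain then becomes part of a wide gap. These domains made up 22.5% of the pooled lists and 17.3% of the background, so that value is raised by construction.

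Few wide gaps were placed identically in all lists. Of 152 distinct gaps of 100 kb or more on the 4 chromosomes, 29 (19.1%) had the same ends in all 4 samples, against 14.2% in the background. Chromosome 16 had 12 of 35, chromosome 17 had 11 of 54, chromosome 19 had 4 of 27 and chromosome 22 had 2 of 36. The longest shared gap measured 750 kb on chromosome 16 (14.65 to 15.4 Mb), 650 kb on chromosome 17 (20.1 to 20.75 Mb), 200 kb on chromosome 22 (16.55 to 16.75 Mb, with another of that length at 17.3 Mb) and 150 kb on chromosome 19 (31.3 to 31.45 Mb, among 3 of that length).

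Domain edges were repeated between samples most often on chromosomes 16 and 17 and least often on chromosome 22. An edge is a distinct start or end, and edges matched only at identical grid positions. The Jaccard index, or edges common to a pair of lists as a share of those in either list, ranged over the 6 pairs of samples from 80.9% to 84.0% on chromosome 16, from 77.3% to 84.3% on chromosome 17, from 73.2% to 78.7% on chromosome 19 and from 71.1% to 74.1% on chromosome 22. The means were 82.7%, 80.5%, 76.3% and 72.8%. Pooled, the 4 chromosomes had a mean of 78.8%, and the background had 76.1%. Grid positions holding an edge made up 31.4% of these chromosomes and 23.5% of the background. Matches by coincidence become more frequent with that share, and its part in the agreement was not tested. Pairs share samples and are not independent, so no test was made.

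Whole domains, with both ends identical, were repeated less than in the background when the 4 chromosomes were pooled. The mean index over the 6 pairs was 57.9% on chromosome 16, 55.9% on chromosome 17, 48.4% on chromosome 19 and 47.5% on chromosome 22. The pooled value was 53.1%, against 54.0% in the background, and without chromosome 22 or without chromosome 19 it lay above the background instead (by 0.16 and 0.59 points). Identical in all 4 lists were 108 domains on chromosome 16, 148 on chromosome 17, 82 on chromosome 19 and 56 on chromosome 22. These 394 domains are 50.6% of the mean list of the 4 chromosomes, and the same share in the background was 53.1%. Among them, 21.8% were 50 kb long, against 13.7% of the identical domains of the background.

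**Figure D3:**
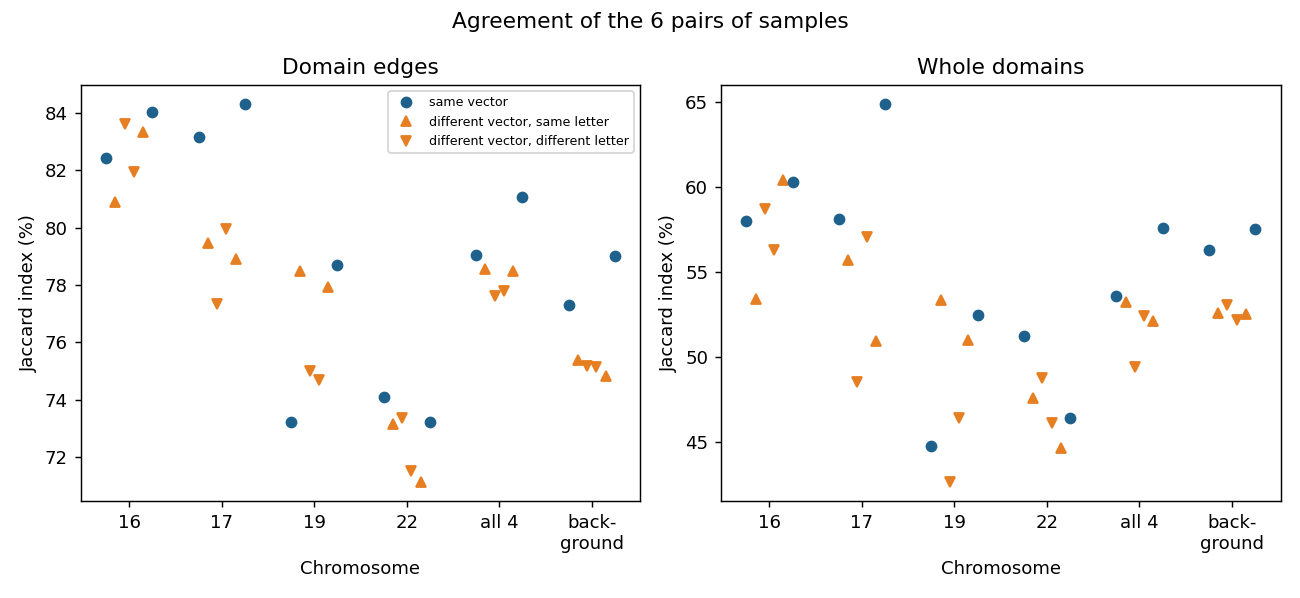
Jaccard index in percent of domain edges (left) and whole domains (right) for the 6 pairs of samples on each chromosome, on the 4 chromosomes pooled and in the background; circles are pairs of the same vector and triangles pairs of different vectors. On chromosome 17 both circles stand above all triangles, while on chromosome 19 the circle of the empty vector pair (73.2% of edges) is the lowest point.

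On chromosome 17, and not on chromosome 19, replicates were closer to each other than to samples of the other vector. The index of edges on chromosome 17 was 83.2% for the empty vector pair and 84.3% for the BAF47 pair, against 77.3% to 79.9% in the 4 pairs of different vectors. The means differed by 4.83 percentage points. Whole domains gave 58.1% and 64.9% against 48.5% to 57.1%. On chromosome 19 the empty vector pair had 73.2%, below all 4 pairs of different vectors (74.7% to 78.5%), and the BAF47 pair had 78.7%. Chromosomes 16 and 22 had differences of 0.77 and 1.37 points. Both pairs of the same vector exceeded all pairs of different vectors on chromosome 17 alone of these 4, and on 8 of the 16 background chromosomes.

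The number and length of domains did not differ between the vectors beyond the spread of the samples when the 4 chromosomes were pooled. Empty vector lists held 778 ± 2.83 domains and BAF47 lists 779.5 ± 10.6 (SD, n = 2 each; exact permutation p = 1). The mean length was 247.95 ± 3.72 kb for empty vector and 245.7 ± 3.93 kb for BAF47 (SD, n = 2), a difference of -2.22 kb (exact permutation p = 0.67). In both measures the groups overlapped. With 2 samples against 2, an exact permutation of the group labels cannot give a p below 0.33, and all 25 tests on these chromosomes had an adjusted p of 1. With 50 kb domains left out, the difference in number was 10 domains in place of 1.5 and the groups no longer overlapped (exact permutation p = 0.33).

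Chromosome 17 was the exception among the 4. Both BAF47 samples held more domains than both empty vector samples there (280 and 284 against 279 and 276, a difference of 4.5), and the difference in mean length was -4.69 kb. The groups likewise did not overlap in coverage, where the difference was -0.48 points. Each of these had the smallest possible p (exact permutation p = 0.33, adjusted p = 1). Chromosomes 16, 19 and 22 overlapped in all 3 measures. Of the 20 autosomes, these 4 included, 20% did not overlap in the number of domains (4 chromosomes), 45% in mean length (9) and 55% in coverage (11). Group labels given at random part 2 samples from 2 with probability 0.33. On the 16 background chromosomes alone, both BAF47 samples were higher on 3 and lower on 0 for the number. For mean length this was 5 and 3, and for coverage 9 and 1. The shares of these chromosomes, 1 of 4 in each measure, lie near or below those of the background.

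Coverage moved differently on these chromosomes and in the pooled background. In the background it was 80.9% and 80.8% with empty vector and 81.7% and 82.1% with BAF47, a rise of 1.06 points with no overlap (exact permutation p = 0.33). On the 4 chromosomes pooled it changed by -0.55 points, from 78.4% and 77.1% to 77.3% and 77.1%, and the groups overlapped (exact permutation p = 0.67). The difference of these differences was -1.61 points, larger than the spread of 1.08 points between empty vector A and B and of 0.61 points between BAF47 A and B (exact permutation p = 0.33, the smallest possible; adjusted p = 0.67 over 60 tests). Coverage was higher in both BAF47 samples than in both empty vector samples on 9 of the 16 background chromosomes and on 0 of these 4. It was lower in both on chromosome 2 of the background and on chromosome 17, and the groups overlapped on the others. Chromosome 15, next in domain density, had 62.3 and 61.65 Mb covered with empty vector and 61.95 and 62.1 Mb with BAF47. The absence of a rise was thus not particular to these 4 chromosomes. In the background the rise was largest on chromosomes 18 and 11, at 7.55 and 5.46 points. Gaps over 1 Mb numbered 26 and 27 in the background with empty vector and 17 and 16 with BAF47. The part of these gaps and of these 2 chromosomes in the pooled rise was not tested. Leaving out 1 sample at a time gave -2.15 to -1.07 points for the difference of differences, and chromosomes 18 and 21 as background gave -6.22 points (exact permutation p = 0.33).

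Empty vector A set most of the pooled change in coverage. On chromosome 19 it listed a domain of 1.95 Mb from 49.05 to 51.0 Mb. This stretch was unlisted in the other 3 samples, within a gap that measured 2.05 Mb in the lists of empty vector B and BAF47 A and 2.15 Mb in that of BAF47 B. No other gap on the 4 chromosomes was over 1 Mb. Without empty vector A the pooled change was 0.071 points in place of -0.55. Wide gaps behaved likewise. Those of 100 kb or more summed to 18.85 Mb in empty vector A and to 22.15, 21.95 and 21.65 Mb in empty vector B, BAF47 A and BAF47 B, whereas in the background they summed to 202.7 and 209.2 Mb with empty vector and to 181.6 and 171.9 Mb with BAF47.

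**Figure D4:**
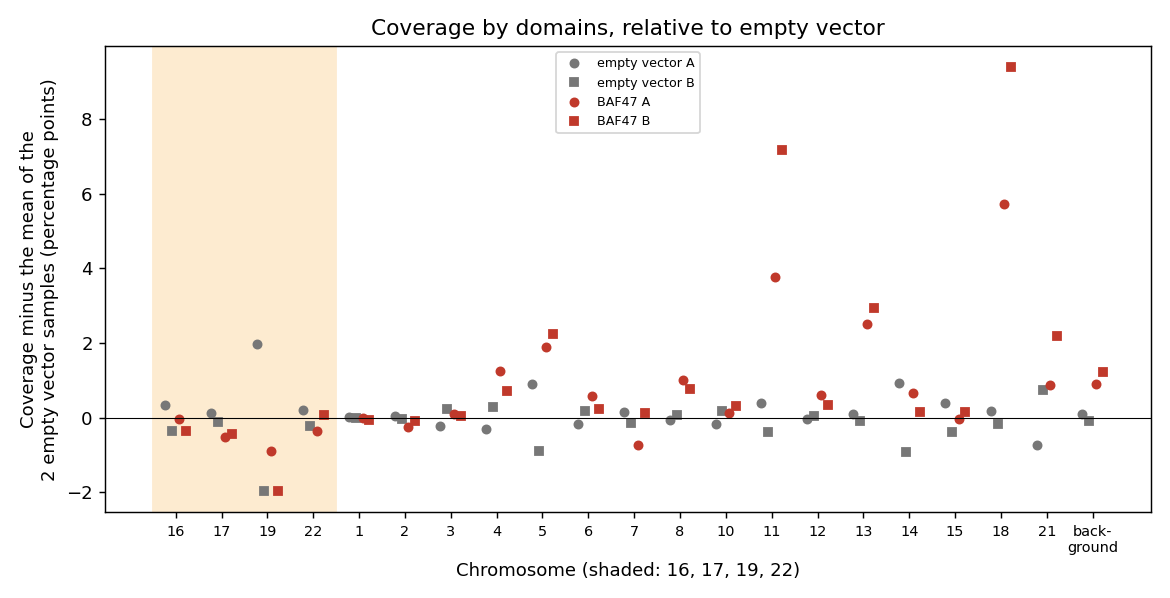
Percent of the listed span covered by domains, as the difference in percentage points from the mean of the 2 empty vector samples, for each sample and autosome. BAF47 points (red) lie above both empty vector points (grey) on 9 background chromosomes and on none of chromosomes 16, 17, 19 and 22 (shaded); the high grey point on chromosome 19 is empty vector A.

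Most edges were kept with BAF47. Of 1896 edges listed on the 4 chromosomes in any sample, 1224 (64.6%) were in all 4, against 60.9% in the background. The share was 71.3% on chromosome 16 (318 of 446), 67.0% on chromosome 17 (446 of 666), 60.3% on chromosome 19 (282 of 468) and 56.3% on chromosome 22 (178 of 316). Of the 543 domains identical in both empty vector samples, 394 (72.6%) were identical in both BAF47 samples, against 74.1% in the background. By chromosome it was 76.6% on chromosome 16, 72.5% on 17, 70.7% on 19 and 68.3% on 22.

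Edges that differed between the vectors went in both directions. An edge was called gained when both BAF47 samples and neither empty vector sample held it, and lost in the reverse case. Reproducible edges, in both samples of at least 1 vector, numbered 1546 on the 4 chromosomes, of which 50 were gained and 44 lost. Together these are 6.08% (95% Wilson interval 4.99% to 7.38%, counting error only), against 7.61% (7.12% to 8.14%) of 10509 in the background, where 3.93% were gained and 3.68% lost. Over all 20 autosomes the share was 7.42%. The intervals of the 4 chromosomes and the background overlapped. Neighbouring edges are not independent, so the intervals are too narrow, and single edges were not tested because for an edge held by 2 samples and not by the other 2 the smallest p is 0.33.

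The share of changed edges was higher on chromosomes 17 and 22 than on 16 and 19, but most of the intervals overlapped. Chromosome 17 gained 24 and lost 20 of 574 reproducible edges (7.67%, interval 5.76% to 10.1%), and chromosome 22 gained 12 and lost 7 of 236 (8.05%, 5.21% to 12.2%), both near the background share. Chromosome 16 gained 8 and lost 11 of 376 edges (5.05%, 3.26% to 7.76%) and chromosome 19 gained 6 and lost 6 of 360 (3.33%, 1.92% to 5.74%). The intervals of chromosomes 16, 17 and 22 overlapped. Per Mb of listed span this came to 0.56 changed edges on chromosome 17 and 0.54 on chromosome 22, and to 0.24 on chromosome 16 and 0.22 on chromosome 19, where the background had 0.35. Along chromosome 17 the windows from 10 to 30 Mb held 0 gained and 0 lost edges, and the window from 0 to 10 Mb held 6 and 6.

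**Figure D5:**
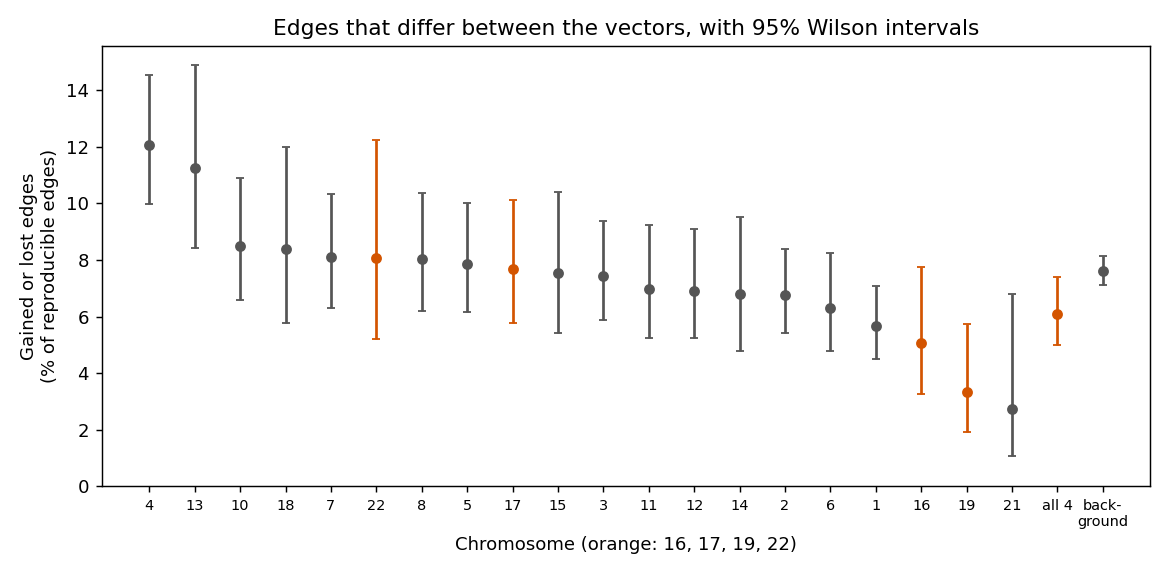
Gained plus lost edges as a percent of reproducible edges on each of 20 autosomes, on the 4 chromosomes pooled and in the background, with 95% Wilson intervals that cover counting error only. Chromosomes 17 (7.67%) and 22 (8.05%) lie beside the background value of 7.61%, and the interval of chromosome 19 (upper bound 5.74%) lies below it. The intervals of background chromosomes 1 (upper bound 7.10%) and 21 (6.79%) lie below it too.

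Most changed edges lay close to an edge of the other vector. Of the 94 changed edges, 61 (64.9%) had their closest counterpart in the other vector at 50 kb, a share close to the 63.2% of the background. Only 14 (14.9%) lay over 100 kb away, against 22.8% in the background. Of these 14, chromosome 17 held 9, with 8 gained, and chromosome 22 held 5. Chromosomes 16 and 19 held 0, and no changed edge there lay more than 100 kb from an edge of the other vector. The farthest changed edge of the 4 chromosomes lay 300 kb away, where the background reached 3050 kb among 800 changed edges. Domains were shorter and edges denser on the 4 chromosomes, which brings the nearest edge closer with any vector. The part of this in the distances was not tested.

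The gained edges farthest from any empty vector edge lay on chromosome 17, with 1 more on chromosome 22. Both empty vector samples listed a domain of 650 kb on chromosome 17 from 41.5 to 42.15 Mb. In its place both BAF47 samples listed domains of 100 kb at 41.85 to 41.95 Mb and 42 to 42.1 Mb, preceded by an unlisted stretch of 500 kb. This gave gained edges at 41.85 Mb (300 kb away) and 41.95 Mb (200 kb) and a lost edge at 41.5 Mb (150 kb). A domain of 450 kb from 61.85 to 62.3 Mb on the same chromosome was parted at 62.05 and 62.1 Mb, each 200 kb from an empty vector edge. Its start lay at 61.9 Mb in both BAF47 samples, and its second part ended at 62.25 Mb in BAF47 A and at 62.3 Mb in BAF47 B. A domain of 1.05 Mb from 35.8 to 36.85 Mb was parted with a gained edge at 36 Mb, leaving domains of 150 and 850 kb in both BAF47 samples. On chromosome 22, a domain of 450 kb from 19.85 to 20.3 Mb was parted at 20.1 Mb, 200 kb away, into domains of 250 and 150 kb.

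The lost edges farthest from any BAF47 edge lay on chromosome 22. Those at 24.85 and 24.9 Mb, 250 and 200 kb away, separated domains in both empty vector samples, and both BAF47 samples listed 1 domain of 500 kb from 24.6 to 25.1 Mb in their place. Inside that stretch the empty vector samples themselves differed, since A listed 24.9 to 25.1 Mb as 1 domain and B listed 2. Next came the lost edge of chromosome 17 at 41.5 Mb given above. After it, several lost edges tied at 100 kb from the nearest BAF47 edge, and those named by their order along the genome lay on chromosome 16 at 34.95, 45.7 and 56.55 Mb. All 12 of these edges kept their call when edges 50 kb apart were counted as 1 boundary bin. A matching distance of 100 kb left 9 of them, without the 3 on chromosome 16. Both outcomes follow from how the edges were picked. All 12 lay 100 kb or more from the other vector, and counting by boundary bin moves an edge by 50 kb at most. The 9 lay over 100 kb away and the 3 at 100 kb. Neither setting is therefore a check of these calls.

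Domains with the same outer edges were parted and joined in similar numbers. Of 543 domains identical in both empty vector samples, 13 (2.39%) held an edge inside them in BAF47 A and B only, against 2.34% in the background. The reverse held for 18 of the 570 domains identical in both BAF47 samples (3.16%), against 1.85% in the background. By chromosome the numbers parted and joined were 2 and 5 on chromosome 16, 6 and 9 on chromosome 17, 2 and 2 on chromosome 19, and 3 and 2 on chromosome 22. A domain shortened by 1 bin counts here too. With at least 2 listed domains inside in both samples of the other vector, only 5 parted and 7 joined domains were left. In the background this left 43 of 3809 and 24 of 3898.

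The longest parted domain, 1.2 Mb on chromosome 16 (39.6 to 40.8 Mb), and the longest joined domain, 1 Mb on chromosome 16 (40.8 to 41.8 Mb), are neighbours. The empty vector lists ended the first at 40.8 Mb and began the second at 40.85 Mb, and the BAF47 lists ended the first at 40.75 Mb and began the second at 40.8 Mb. The boundary between them thus sat 1 bin lower in both BAF47 samples, and both domains were otherwise the same. The next longest parted domains were those of chromosome 17 at 35.8 Mb and chromosome 22 at 19.85 Mb given above. Among joined domains, a 600 kb domain on chromosome 16 (34.45 to 35.05 Mb) stood in place of domains of 500 and 50 kb in both empty vector samples, and a 500 kb domain on chromosome 17 (61.35 to 61.85 Mb) was 450 kb long in both empty vector samples.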

How the data were processed

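Hi-C libraries of 4 samples were compared, 2 per vector. Fixation used 1% formaldehyde, digestion used CviQI, CviAII and BfaI, and sequencing was paired-end, per the labels' protocols. The authors deposited 1 list of domains per sample, with chromosome, start and end, and no count, score or signal. Per the submitters' processing notes, coordinates refer to hg18. Not given in the sources used here are the aligner, the domain caller, its resolution and any filter.

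Listed rows were read as given. Span runs from first start to last end of a chromosome. Background chromosomes were pooled within each sample, and its difference from the 4 chromosomes was tested by exact sign-flip permutation over samples. The vectors were compared by exact permutation of the group labels, and the difference of differences on per-sample values. All tests were two-sided, with Benjamini-Hochberg adjustment. Edges matched within 40 kb, which on the 50 kb grid means identical positions. The counting of edges and split domains was run on simulated lists, where all 20 boundaries put in on the 4 chromosomes were found. This checks the counting alone. It gives no rate of false or missed gained or lost edges, because real lists of the same vector also differ from each other. The letters were not taken to pair samples: across 20 chromosomes the A minus B difference in the number of domains correlated at r = -0.041 between the vectors, and that in coverage at 0.19.

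Regions named are, per chromosome, the longest domain and gap identical in all samples and the densest and sparsest 10 Mb window; and, over the 4 chromosomes, the 6 gained and 6 lost edges farthest from the other vector and the 3 longest parted and joined domains. Members and lists were chosen with earlier results of these data known. Python 3.11.15, numpy 2.4.6, scipy 1.17.1, pandas 2.3.3 and matplotlib 3.10.9 were used.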

Additional observations from a re-analysis of the deposited data

Results flagged for a closer look

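The coverage of chromosome 17 moved against the background. Both BAF47 samples covered less of it than both empty vector samples, by -0.48 percentage points (74.2% and 74.3% against 74.9% and 74.6%), while in the pooled background both BAF47 samples covered more, by 1.06 points. The difference of these differences was -1.54 points (exact permutation p = 0.33, the smallest that 2 samples against 2 allow; adjusted p = 0.67). It was similar on chromosomes 16 (-1.25 points) and 22 (-1.20 points), each with an exact permutation p of 0.33 (adjusted p = 0.67), and was -2.49 points on chromosome 19 (exact permutation p = 0.67, adjusted p = 0.93), so it was not particular to chromosome 17. On those 3 chromosomes the coverage of the vectors overlapped.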

How the results depend on the processing

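With domains of 50 kb or of 5 Mb and over left out, other backgrounds, equal weights per chromosome or 1 of the 4 chromosomes left out, the higher density, shorter mean length and lower coverage against the background kept their direction. For coverage this held only in the mean against chromosomes 18 and 21 (-1.25 points, exact sign-flip permutation p = 0.63). Leaving out 1 sample gave 0.78 to 0.80 domains per Mb, -101.4 to -98.2 kb and -4.36 to -3.54 points of coverage. The lower share of wide gaps (-3.27 to -2.69 points without 1 sample) reversed without 50 kb domains (2.54), for gaps of 200 kb or more (0.15) and as a share of the span (0.061). The first of these is raised by construction, because a 50 kb domain left out becomes part of a wide gap. The excess in edge agreement of 2.61 points (2.51 to 2.77 without 1 sample) moved to 4.38 with chromosomes 9 and 20 in the background, 1.28 for domain starts, 1.69 for boundary bins, and 1.36, 1.65, 3.39 and 3.77 without chromosome 16, 17, 19 or 22. For whole domains -0.96 (-2.26 to -0.0026 without 1 sample) reversed to 5.30 at a matching distance of 100 kb, 1.83 with chromosomes 9 and 20, 0.59 without chromosome 19 and 0.16 without chromosome 22.

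Between the vectors, the pooled differences were small and changed sign. Without 50 kb domains they were 10 domains and -2.38 points of wide gaps in place of 1.5 and -0.015, with no overlap of the groups (exact permutation p = 0.33 each). Wide-gap values without 50 kb domains are no separate check, because a domain left out becomes part of a wide gap. Such domains numbered 185 and 174 with empty vector and 165 and 177 with BAF47. Leaving out 1 sample gave -6 to 9 domains, -0.024 to 0.036 domains per Mb, -5.00 to 0.56 kb, -1.18 to 0.071 points of coverage and -0.51 to 0.47 points of wide gaps. Without chromosome 17 or 22 they were -3 and -0.5 domains, -0.018 and -0.0023 domains per Mb, and 0.57 and 0.017 points of wide gaps. Against the background, the vector difference in domains per Mb (-0.017; -0.040 to 0.0063 without 1 sample) was 0.021 without 50 kb domains and 0.00057 without chromosome 19. That in wide gaps (1.12; 0.77 to 1.48) was -2.19 without 50 kb domains, that in length was -7.11 to 0.38 kb and that in coverage -2.15 to -1.07 points without 1 sample. With the letters as a replicate block the values are the same, with a coverage difference of -0.55 points at an exact sign-flip permutation p of 0.5, the smallest possible, and no call changed.

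At a matching distance of 100 kb, 12 edges were gained and 4 lost (1.02% of reproducible edges, background 2.16%), and 5 domains were parted and 1 joined. Domain starts gave 29 gained (7.93% gained or lost, background 9.45%) and boundary bins 32 (7.78%, background 9.80%). With 2 or more inner domains, 5 of 543 were parted and 7 of 570 joined. In the background it was 43 of 3809 and 24 of 3898. Leaving out 1 sample, with the remaining sample of that vector taken alone, gave 95 to 113 gained and 91 to 109 lost edges. This was 12.02% to 13.2% of reproducible edges, against 14.4% to 15.6% in the background. Parted domains numbered 28 to 46 and joined domains 35 to 44. Neither was counted in the background without 1 sample or at 100 kb. The 100 kb distance matches more by construction, and leaving out a sample asks for presence in fewer; other causes were not tested. Without read depth, no value could be weighed by it.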
